A study of Mus musculus with 12 samples.

Results

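Macrophages that lacked most of their Usp5 transcript were set against wild-type macrophages after both had met lipopolysaccharide (LPS), the cell wall component of Gram-negative bacteria. The comparison used 6 of 12 RNA sequencing libraries, chosen by title: 3 of myeloid Usp5 knockout (MKO) and 3 of wild-type (WT) peritoneal macrophages, all sampled 3 h after LPS. The other 6 libraries were the same genotypes at 0 h, 3 each. They are used here to set a difference after LPS beside the difference without it. They also entered the same fit, and so the estimate of spread behind each adjusted p at 3 h. LPS is named as the treatment of all samples, 0 h included, although the design text calls those at 0 h mock. Not given in the sources used here are the Cre driver, the deleted exons, the strain, age and sex of the mice, the dose of LPS, and whether animals were pooled. Nor do the labels say whether the replicates are separate animals. The p-values thus measure only the spread between these libraries, which may be technical.

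Macrophages sense LPS through Toll-like receptor 4 and its co-receptors, and the adaptors MyD88 and TRIF pass the signal on to NF-kB, the MAP kinases and the interferon regulatory factors. Polyubiquitin chains serve as scaffolds on that route, and deubiquitinases such as A20 (Tnfaip3) and Cyld take them down. Usp5 encodes a deubiquitinase that disassembles unanchored polyubiquitin chains back into single ubiquitin. Interferon beta made early in the response is secreted and acts back on the cells through its receptor, which turns on antiviral genes.

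The libraries held 15615955 to 20778862 counts in MKO and 17854394 to 20563698 counts in WT, and levels are given as CPM, counts over a library size scaled by the trimmed mean of M values (TMM). Usp5 (ENSMUSG00000038429, minus strand of chromosome 6, 124815019 to 124829484 in mm10) was at 27.9, 27.98 and 26.9 CPM in the MKO libraries, against 107, 106 and 111 CPM in the WT libraries. No MKO library overlapped a WT library, and the knockout left 25.5% of the WT level (log2 fold change -1.97, SE 0.075, adjusted p = 1.9e-10; edgeR's quasi-likelihood test with Benjamini-Hochberg adjustment over all 12455 genes tested, as for every adjusted p below). The first principal component of the 6 libraries held 68.4% of their variance and parted the genotypes.

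After LPS 5326 genes differed at an adjusted p under 0.05, 42.8% of those tested, with 2463 (19.8%) higher and 2863 (23%) lower in MKO. The shares higher and lower are the reference for every list count below. All MKO libraries lay above all WT libraries in 28.7% of genes, and below them in 32.5%. A difference of at least 2-fold was seen in 633 genes that were higher (5.08%) and in 363 that were lower (2.91%). The median log2 fold change over all genes tested was -0.01. Scaling by library size alone moved that median by 0.25 and turned the split to 5424 higher and 1199 lower, so every direction below is relative to the bulk of the genes, and small differences turn over under that scaling. The libraries also differed in how expression ran with exon length. For each gene the log2 level was taken as its deviation from the gene's mean over all 12 libraries. The slope of that deviation on log2 length was 0.0427, 0.0419 and 0.0768 in MKO and -0.0159, -0.0209 and -0.00708 in WT. Genes that were higher had a median exon length of 4996 bases and genes that were lower one of 3999 bases, against 4380 bases over all genes tested, and the part of this in the results was not tested.

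The labelled cell type was checked against markers. The macrophage markers Adgre1 (F4/80), Csf1r, Cd68, Itgam and Fcgr1 were abundant in all 6 libraries, with Adgre1 at 2036, 1963 and 2020.1 CPM in the MKO libraries, against 3021, 3058 and 2978 CPM in the WT libraries. Lyz2, the lysozyme gene, was low in both genotypes (21.1 CPM in MKO and 39.9 CPM in WT), and its near-identical copy Lyz1 may share its reads. Of the macrophage markers 6 of 9 were lower and 0 higher (6 lower and 2 higher with library size alone), and their summed level was 8547 to 8778 CPM in MKO and 11559 to 11921 CPM in WT. Csf1r (adjusted p = 0.53), Itgam (adjusted p = 0.83) and Mertk (adjusted p = 0.091) did not pass the test. In bulk RNA fewer cells of a type and less RNA per cell cannot be told apart. Of defining genes of large resident peritoneal macrophages, Timd4 and Cxcl13 had no count in any of the 6 libraries. Gata6 and Vsig4 had no count in MKO and a single count each in WT. The whole list without Laptm5, its most abundant gene, summed to 24.3 to 25.5 CPM in MKO and 18.7 to 21.2 CPM in WT.

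**Figure D1:**
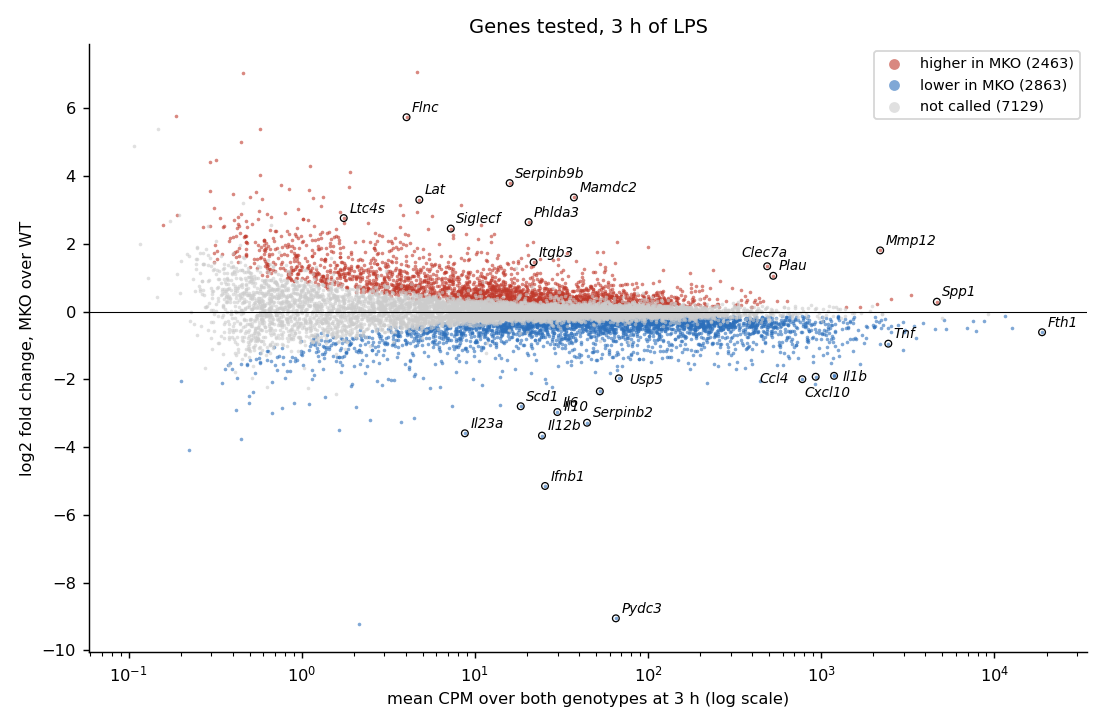
Log2 fold change of MKO over WT after 3 h of LPS (vertical axis) against the mean level in both genotypes in CPM (horizontal axis, log scale), 1 point per gene, with named genes circled. Ifnb1, Il12b and Il23a lie far below 0, and Mmp12, Clec7a and Plau stand out among abundant genes that were higher.

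Cytokine genes that LPS is known to induce held several of the largest falls, which were ranked only among called genes without overlap of libraries. Ifnb1, the interferon beta gene, was at 1.16, 1.42 and 1.55 CPM in the MKO libraries, against 44.9, 46.7 and 56.7 CPM in the WT libraries. All MKO libraries lay far below all WT libraries, a 35.5-fold difference (log2 fold change -5.15, SE 0.17, adjusted p = 5.5e-11). Il12b encodes the subunit shared by interleukins 12 and 23 and was at 2.96, 4.02 and 3.71 CPM in MKO, against 45.6, 47.7 and 42.5 CPM in WT. Il23a, which encodes the other subunit of interleukin 23, was at 1.34, 1.86 and 0.892 CPM in MKO, against 17.7, 15.5 and 15.3 CPM in WT. Both subunits of interleukin 23 were thus lower without overlap of libraries, 12.7-fold for Il12b and 12.1-fold for Il23a (log2 fold changes -3.66 and -3.59). Il12a, which with Il12b forms interleukin 12, was at 0.464, 0.867 and 0.235 CPM in MKO, against 2.19, 1.61 and 1.74 CPM in WT (log2 fold change -1.86, SE 0.41, adjusted p = 0.0021).

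Inflammatory cytokines as a list had 23 of 31 tested members lower and 2 higher, and 15 members were lower by at least 2-fold, with a median log2 fold change of -0.95. Il6, which encodes the fever cytokine interleukin 6, was at 7.66, 7.49 and 5.35 CPM in MKO, against 54.03, 57.3 and 47.9 CPM in WT (log2 fold change -2.97). Il10, the gene of the anti-inflammatory cytokine interleukin 10, was at 13.4, 16.3 and 21.7 CPM in MKO, against 82.6, 81.5 and 100.4 CPM in WT (log2 fold change -2.36). Il1a and Il1b, the interleukin 1 genes, stayed abundant in MKO. Il1a was at 334, 329 and 354 CPM in MKO, against 1544, 1543 and 1432 CPM in WT. Il1b was at 501, 506 and 499 CPM in MKO, against 1947, 1946 and 1720.0 CPM in WT. Tnf, the most abundant cytokine transcript by TPM, was at 1635, 1655 and 1706 CPM in the MKO libraries, against 3275, 3227 and 3141 CPM in the WT libraries, a 1.93-fold difference. Tnfsf9, which encodes the costimulatory ligand 4-1BBL, was at 172 CPM in MKO and 715 CPM in WT (log2 fold change -2.06, SE 0.072, adjusted p = 7.6e-11). Csf2, the gene of the growth factor GM-CSF, and Edn1, the endothelin 1 gene, had log2 fold changes of -2.82 and -2.77, with mean levels of 0.516 CPM in MKO and 3.58 CPM in WT for Csf2 and 3.56 CPM in MKO and 24.5 CPM in WT for Edn1.

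Not every cytokine gene followed. Osm, which encodes oncostatin M, was at 44.7, 42.96 and 57.5 CPM in MKO, against 35.8, 30.1 and 31.7 CPM in WT, and rose (log2 fold change 0.58, SE 0.12, adjusted p = 0.0014). Tnfsf13b, the gene of the B cell survival factor BAFF, was the other member higher in MKO (log2 fold change 0.56, SE 0.15, adjusted p = 0.0087). Csf1, the gene of the macrophage growth factor, was at 75.5 CPM in MKO and 82.3 CPM in WT. Tgfb1 was at 309 CPM in MKO and 323 CPM in WT. Neither passed the test (adjusted p = 0.21 for Csf1 and 0.83 for Tgfb1).

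**Figure D2:**
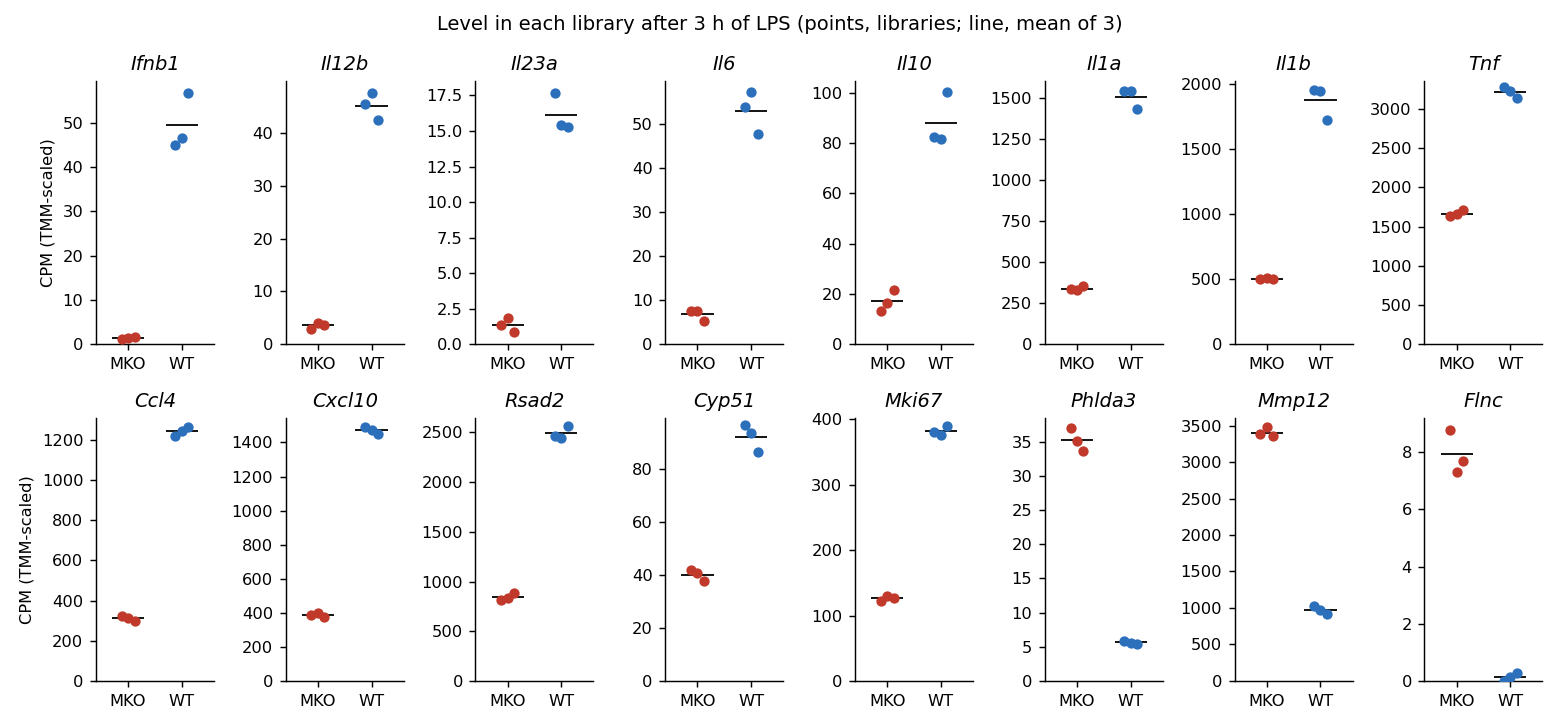
Level in CPM (vertical axes, each from 0) of 16 genes in each library after 3 h of LPS, MKO left and WT right, with points for the 3 libraries and a line at their mean. No panel has an overlap between genotypes, and Ifnb1, Il12b, Il23a and Il6 in MKO lie close to 0.

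The promoters of the 3 genes with the smallest p among cytokines, interferon beta and chemokines are shown from RefSeq (GRCm38.p6), since these genes had the falls with the smallest p of that group. Each is the 250 bases before the RefSeq start, 5′ to 3′ on the strand of the gene, with capitals for matches to the motifs given below. They lie on chromosome 2, minus strand (chr2:129309973-129310222) for Il1a, on chromosome 11, plus strand (chr11:44399813-44400062) for Il12b, and on chromosome 4, minus strand (chr4:88522795-88523044) for Ifnb1.
Il1a: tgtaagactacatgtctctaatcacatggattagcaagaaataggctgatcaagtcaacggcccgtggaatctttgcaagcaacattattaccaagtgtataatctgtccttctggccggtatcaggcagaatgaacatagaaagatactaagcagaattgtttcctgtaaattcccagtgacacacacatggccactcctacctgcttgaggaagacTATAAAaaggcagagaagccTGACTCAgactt
Il12b: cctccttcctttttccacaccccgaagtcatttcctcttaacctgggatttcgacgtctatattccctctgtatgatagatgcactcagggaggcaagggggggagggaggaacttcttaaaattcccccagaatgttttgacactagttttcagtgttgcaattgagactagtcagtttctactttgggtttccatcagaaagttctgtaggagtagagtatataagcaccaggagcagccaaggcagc
Ifnb1: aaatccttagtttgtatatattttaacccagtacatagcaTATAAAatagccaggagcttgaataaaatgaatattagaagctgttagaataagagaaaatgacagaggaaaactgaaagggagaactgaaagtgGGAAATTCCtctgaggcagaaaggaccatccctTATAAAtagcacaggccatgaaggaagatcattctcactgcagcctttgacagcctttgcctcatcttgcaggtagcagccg
In Ifnb1 the capitals mark a match to the NF-kB motif that begins 115 bases before the start, GGAAATTCC, and a pair of TATA matches at 210 and 82 bases before it. In Il1a they mark an AP-1 match (TGACTCA) 12 bases and a TATA match 32 bases before the start. The Il12b window held no match to any of the 6 motifs.

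The motifs were searched on both strands, overlaps allowed: NF-kB as GGANNTTCC, interferon response as GAAANNGAA, sterol response as TCACNCCAC, E2F as TTTNNCGC, AP-1 as TGANTCA and TATA as TATAAA. An NF-kB match stood in 5 of 15 chemokine promoters (33.3%) and 5 of 23 cytokine promoters (21.7%), against 3.56% of all 27025 promoters. Lists with calls near the share of all genes held it too. It stood in 3 of 11 promoters of MHC class II presentation genes (27.3%) and 2 of 11 of interferon-inducible GTPases (18.2%). An interferon response match stood in 21 of 50 antiviral gene promoters (42%) and in 10 of 11 promoters of interferon-inducible GTPases (90.9%), against 7.16% of all promoters. Among genes lower by at least 2-fold 8.94% of 246 promoters held an NF-kB match and 15.04% an interferon response match. For genes higher by at least 2-fold the shares were 3.90% and 4.34% of 461 promoters. The windows of Idi1, Insig1 and Cyp51, the first cholesterol synthesis genes by p, held no match before the start of the gene and are not printed. A match is a description of letters and not a bound site.

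Chemokines, the secreted attractants of leukocytes, had 17 of 23 tested members lower and 2 higher (median -0.63; 14 lower and 4 higher with library size alone). Ccl4 and Ccl3, which encode the inflammatory proteins MIP-1 beta and MIP-1 alpha, had the smallest p of the list. Ccl4 was at 324, 311 and 300.3 CPM in MKO, against 1222, 1246 and 1263 CPM in WT. Ccl3 was at 568, 600.5 and 596 CPM in MKO, against 1723, 1686 and 1689 CPM in WT. Cxcl10, an attractant of T cells that interferon induces, was at 389, 397 and 376 CPM in MKO, against 1489.7, 1475 and 1447 CPM in WT. These 3 were lower by 3.99-fold, 2.89-fold and 3.798-fold with no overlap. The neutrophil attractant Cxcl2 was at 897 CPM in MKO and 1740.0 CPM in WT (log2 fold change -0.96). Cxcl1, another of that kind, was at 225 CPM in MKO and 303 CPM in WT (log2 fold change -0.43, SE 0.1, adjusted p = 0.0038). The members higher in MKO were Cx3cl1, the fractalkine gene (1.78 CPM in MKO and 0.855 CPM in WT), and Ppbp (32.8 CPM in MKO and 18.8 CPM in WT), which platelets also make.

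Receptors for such attractants had 9 of 14 tested members lower and 2 higher (median -0.58). C5ar1, the receptor gene for the complement fragment C5a, was at 408, 428 and 415 CPM in MKO, against 991, 926 and 948 CPM in WT. Ccrl2, an atypical chemoattractant receptor that LPS induces, was at 285, 294 and 335 CPM in MKO, against 909, 904 and 895 CPM in WT. C3ar1, the C3a receptor gene and the most abundant of the list by TPM, was at 1303 CPM in MKO and 2126 CPM in WT. Of the cytokine receptors 14 of 31 were lower and 5 higher (10 lower and 11 higher with library size alone), with the costimulatory receptor gene Cd40 at 123, 118 and 123 CPM in MKO, against 344, 366 and 359 CPM in WT. Il13ra1, a receptor chain for interleukin 13, was at 68.97, 66.1 and 67.7 CPM in MKO, against 42.6, 43.3 and 40.1 CPM in WT.

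Antiviral interferon-stimulated genes were lower almost without exception, with 64 of 68 tested members lower and 0 higher, where 23% of all genes tested were lower. Their median log2 fold change was -0.61, and 12 were lower by at least 2-fold. Rsad2, which encodes the antiviral enzyme viperin, was at 813, 830.02 and 889 CPM in the MKO libraries, against 2466, 2446 and 2561 CPM in the WT libraries. Cmpk2, its neighbour that encodes a nucleotide kinase, was at 357, 368 and 374 CPM in MKO, against 927, 937 and 877 CPM in WT. Ifit1, which encodes a sensor of viral RNA caps, was at 344, 348 and 362 CPM in MKO, against 819, 805 and 794 CPM in WT. The groups stood apart in all 3 genes, by log2 fold changes of -1.56 for Rsad2, -1.32 for Cmpk2 and -1.198 for Ifit1. Slfn4 and Slfn2, members of the Schlafen family, had log2 fold changes of -1.56 and -0.91, and since Schlafen genes resemble each other their reads may be shared. The 4 members that did not pass the test were Oas1c, Tap1, Ifi27 and Tmem173, the gene of the DNA-sensing adaptor STING, which was at 132 CPM in MKO and 127 CPM in WT (adjusted p = 0.61).

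Interferon-inducible GTPases, which attack vacuoles that hold microbes, had 4 of 19 tested members lower and 3 higher (median -0.09; 1 lower and 8 higher with library size alone; 2 lower and 3 higher at a mean of at least 5 CPM, without replicate 1 of MKO, without replicate 2 of MKO and without replicate 1 of WT; 1 lower and 3 higher with replicates 1 and 2 summed; 7 lower and 3 higher without replicate 3 of both 0 h groups). The shares of 21.1% lower and 15.8% higher in the main fit lay near the 23% and 19.8% of all genes tested. Gbp5 was at 337, 333 and 378 CPM in MKO, against 718, 703 and 679 CPM in WT, and fell (log2 fold change -1.003, SE 0.075, adjusted p = 1.4e-07). Gbp4 was at 214, 212 and 255 CPM in MKO, against 138, 133 and 116 CPM in WT, and rose (log2 fold change 0.81, SE 0.098, adjusted p = 1.4e-05). Gbp8 and Gbp11 also rose, at 39.8 CPM in MKO and 23.5 CPM in WT for Gbp8 and 4.88 CPM in MKO and 2.55 CPM in WT for Gbp11. Gbp2, the most abundant, was at 1054 CPM in MKO and 1000.1 CPM in WT (adjusted p = 0.54). Genes of this family are close copies, so their counts are uncertain.

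Interferon signalling genes had 17 of 22 tested members lower and 1 higher (median -0.36; 9 lower and 3 higher with library size alone). Irf7, the gene of the factor that amplifies interferon production, was at 1150.3, 1153 and 1183 CPM in MKO, against 2059.8, 2022 and 2020.3 CPM in WT. Irf1, another interferon regulatory factor, was at 798 CPM in MKO and 1233 CPM in WT (log2 fold change -0.63). The feedback inhibitor Socs3 was at 653 CPM in MKO and 1115 CPM in WT (-0.77). Cish, a feedback inhibitor of cytokine receptors, was the 1 member that rose (log2 fold change 0.79, SE 0.12, adjusted p = 0.00012).

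**Figure D3:**
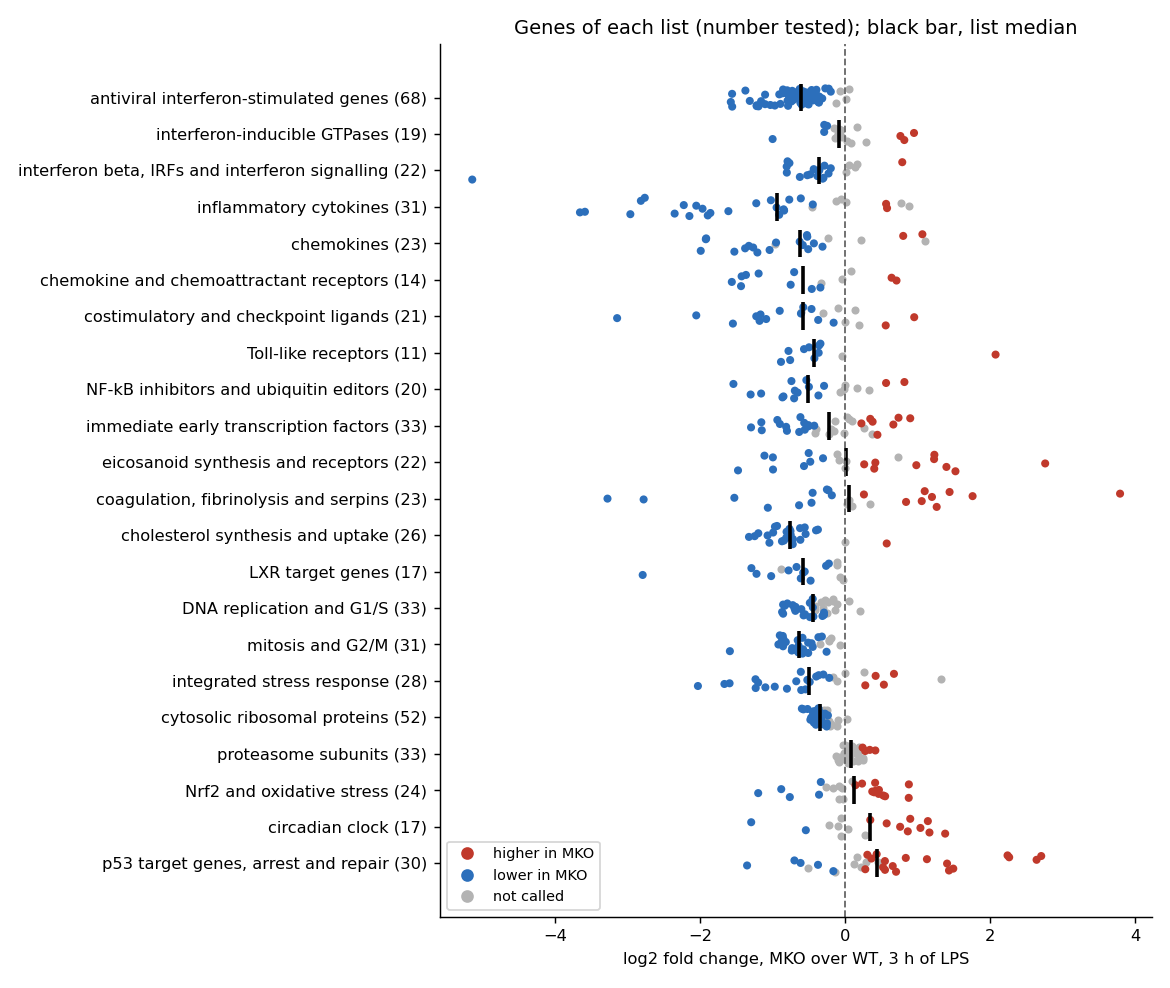
Log2 fold change of MKO over WT after 3 h of LPS (horizontal axis) for each tested gene of 22 lists, with the number tested in brackets. Points are genes, coloured by call, a black bar is the median of the list and the dashed line the median of all genes tested. Antiviral, cholesterol synthesis and mitosis genes lie almost wholly left of the dashed line, and p53 target and clock genes mostly right of it.

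On the sensing side, Toll-like receptors had 9 of 11 tested members lower and 1 higher (median -0.43; 4 lower and 1 higher with library size alone). Tlr2, the receptor gene for bacterial lipoproteins, was at 341, 348 and 362 CPM in MKO, against 614, 594 and 574 CPM in WT. Tlr1, its partner, was at 153 CPM in MKO and 283 CPM in WT (log2 fold change -0.89). Tlr4, the receptor gene for LPS itself, was at 122, 108 and 115 CPM in MKO, against 121, 117 and 117 CPM in WT, and did not pass the test (log2 fold change -0.04, SE 0.086, adjusted p = 0.73), and the libraries overlapped. Tlr5, a flagellin receptor, was the 1 member that rose, at a low level (0.979 CPM in MKO and 0.227 CPM in WT). The LPS co-receptor gene Cd14 was at 789, 758 and 816 CPM in MKO, against 1419, 1416 and 1309 CPM in WT (log2 fold change -0.81). Clec4e, which encodes the glycolipid receptor Mincle, was at 598, 592 and 599 CPM in MKO, against 1446, 1429.6 and 1439.7 CPM in WT. Clec7a, the gene of the beta-glucan receptor dectin 1, went the other way, at 691, 702 and 702 CPM in the MKO libraries, against 288, 282 and 259 CPM in the WT libraries (log2 fold change 1.34). Of the LPS receptor and co-receptor genes 7 of 13 were lower and 3 higher (5 lower and 5 higher with library size alone).

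MyD88 and TRIF signalling genes had 16 of 25 tested members lower and 4 higher, with a median of -0.23 (0.02, with 7 lower and 9 higher, with library size alone; 10 lower and 2 higher with replicates 1 and 2 summed). Traf1, an NF-kB target that encodes an adaptor, was at 111, 103 and 102 CPM in MKO, against 251, 262 and 261 CPM in WT. The inhibitory kinase gene Irak3 was at 51.1 CPM in MKO and 83.7 CPM in WT. NF-kB subunits and kinases had 7 of 10 tested members lower and 1 higher (4 lower and 1 higher with library size alone), with Rel at 281 CPM in MKO and 527 CPM in WT, Nfkb2 at 151 CPM in MKO and 253 CPM in WT. Relb was at 62.8 CPM in MKO and 101 CPM in WT. NF-kB inhibitors and ubiquitin editors, many of them NF-kB targets in their own right, had 13 of 20 tested members lower and 2 higher (median -0.52; 11 lower and 7 higher with library size alone). Tnfaip3, which encodes the deubiquitinase A20, was at 899, 903 and 1015 CPM in MKO, against 2086, 2074 and 2146 CPM in WT. Nfkbiz, which encodes a coactivator needed for Il6 and Il12b, was at 702, 709.9 and 781 CPM in MKO, against 1832, 1793 and 1802 CPM in WT. Nfkbia, the I kappa B alpha gene, was at 807 CPM in MKO and 1316 CPM in WT (log2 fold change -0.71). Peli1, a ubiquitin ligase gene, was at 94.5 CPM in MKO and 276 CPM in WT (-1.54). Activators and inhibitors of NF-kB were thus lower side by side.

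MAP kinases and their phosphatases had 11 of 23 tested members lower and 4 higher (median -0.22, or 0.03, with 7 lower and 8 higher, with library size alone; 7 lower and 4 higher at a mean of at least 5 CPM). The phosphatase gene Dusp1 was at 560.02, 565 and 645 CPM in MKO, against 1086, 1059 and 1147 CPM in WT. Dusp16 was at 54.7 CPM in MKO and 107 CPM in WT, while Mapk14, the p38 alpha gene, did not pass (adjusted p = 0.44). Immediate early transcription factors were split, with 14 of 33 tested members lower and 7 higher (median -0.22, or 0.03, with 13 lower and 10 higher, with library size alone). Klf6 was at 943, 957 and 1047 CPM in MKO, against 1846, 1804 and 1862 CPM in WT. Atf3, a stress-induced repressor, was at 335 CPM in MKO and 585 CPM in WT. Fos, the gene of an AP-1 subunit, was at 195, 202 and 228 CPM in MKO, against 145, 149 and 165 CPM in WT, and rose (log2 fold change 0.44, SE 0.085, adjusted p = 0.00083). Among mRNA decay regulators 5 of 11 were lower and 1 higher, with a median of -0.08 (0.17, with 4 lower and 5 higher, with library size alone). Zfp36, which encodes the protein tristetraprolin that destabilises Tnf mRNA, was at 1383, 1449.6 and 1605 CPM in MKO, against 2962, 2866 and 2868 CPM in WT.

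Costimulatory and checkpoint ligands had 13 of 21 tested members lower and 2 higher (median -0.58; 12 lower and 5 higher with library size alone). Besides Tnfsf9 and Cd40, Vcam1, an adhesion molecule for leukocytes, was at 84.9, 80.4 and 82.2 CPM in MKO, against 179, 185 and 164 CPM in WT. Sele, the E-selectin gene, was at 0.887 CPM in MKO and 7.97 CPM in WT. Antimicrobial and acute phase genes had 12 of 18 tested members lower and 3 higher (6 lower and 4 higher with library size alone). Acod1, which encodes the enzyme that makes itaconate, was at 1825, 1819 and 1899 CPM in the MKO libraries, against 4119, 4092 and 3979 CPM in the WT libraries. Saa3, an acute phase gene, was at 549.6, 537 and 428 CPM in MKO, against 1867, 1959 and 1776 CPM in WT. Nos2, the inducible nitric oxide synthase gene, was low and closer between genotypes, at 15.9 CPM in MKO and 20.2 CPM in WT (log2 fold change -0.34). In the arginine and alternative activation list 7 of 14 were lower and 4 higher (4 lower and 4 higher with library size alone), with the arginine transporter gene Slc7a2 at 54.7 CPM in MKO and 153 CPM in WT. The arginine-making enzyme gene Ass1 was at 226 CPM in MKO and 148 CPM in WT. Inflammasome genes had 10 of 21 tested members lower and 2 higher (5 lower and 6 higher with library size alone; 6 lower and 2 higher at a mean of at least 5 CPM, with no low-count filter and without replicate 1 of WT; 6 lower and 1 higher with replicates 1 and 2 summed). The sensor gene Nlrp3 was at 358, 359 and 382 CPM in MKO, against 849.8, 864 and 843 CPM in WT. Mefv, the pyrin gene, was at 103 CPM in MKO and 221 CPM in WT, while the Casp1 and Pycard genes, which encode the shared effector and adaptor, did not pass (adjusted p = 0.69 and 0.56).

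The largest rises were in genes that WT macrophages hardly expressed. Flnc, the gene of the muscle form of filamin, was at 8.77, 7.304 and 7.699 CPM in MKO, against 0, 0.129 and 0.2802 CPM in WT (log2 fold change 5.74, SE 0.48, adjusted p = 4.3e-07). Serpinb9b, a serine protease inhibitor gene, was at 29.03, 31.3 and 28.5 CPM in MKO, against 2.57, 1.87 and 1.96 CPM in WT. Mamdc2, which encodes a matrix proteoglycan, was at 65.3, 69.6 and 69.1 CPM in MKO, against 7.65, 6.31 and 5.83 CPM in WT. Lat, the gene of an adaptor of T cell receptor signalling, was at 8.88, 9.59 and 7.56 CPM in MKO, against 0.627, 1.09 and 0.897 CPM in WT. All of these stood apart from WT in every library, as the rule by which they were named required. Few counts lie behind the other genes of this kind, such as Lmod3, a leiomodin gene of muscle, at 1.13 CPM in MKO and 0.0215 CPM in WT. Dok7, an adaptor gene of the neuromuscular junction, was at 1.56 CPM in MKO and 0.124 CPM in WT. The log2 differences at 0 h were 5.78 for Lmod3 and 3.79 for Dok7, with no interaction called.

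Among the falls outside the cytokines, Pydc3 was at 0.0581, 0.186 and 0.422 CPM in MKO, against 138, 132 and 121 CPM in WT, and as a member of the near-identical interferon-inducible PYHIN family on chromosome 1 its count is uncertain. The log2 difference of Pydc3 at 0 h was -8.08, with no interaction called. Adm, the gene of the vasodilator adrenomedullin, was at 0.348, 0.3095 and 0.141 CPM in MKO, against 4.199, 2.96 and 1.85 CPM in WT. Plagl1, a zinc finger factor gene, was at 0.755, 0.929 and 0.469 CPM in MKO, against 6.33, 6.44 and 7.62 CPM in WT. Areg, the gene of the growth factor amphiregulin, was at 0.232 CPM in MKO and 1.58 CPM in WT. Il1bos, an antisense gene at Il1b, was lower too (-2.52), but without a stated strand its reads and those of Il1b cannot be told apart.

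Proteases of clotting and their inhibitors moved in both directions, with 10 of 23 tested members lower and 9 higher (7 lower and 12 higher with library size alone). The plasminogen activators parted: Plau, the urokinase gene, was at 701, 695 and 745 CPM in the MKO libraries, against 341, 341 and 348 CPM in the WT libraries. Plat, the tissue-type activator gene, was at 1.45, 2.35 and 1.83 CPM in MKO, against 14.4, 14.6 and 9.86 CPM in WT. Serpinb2, the gene of an inhibitor of both, was lower, at 7.61, 8.54 and 8.64 CPM in MKO, against 83.3, 82.2 and 76.2 CPM in WT. F3, the tissue factor gene that starts clotting, was at 11.5 CPM in MKO and 24.2 CPM in WT (log2 fold change -1.07). Other serpins rose, Serpinb6b at 84.5 CPM in MKO and 25.03 CPM in WT. Serpina3g was at 94.6 CPM in MKO and 34.9 CPM in WT. Matrix proteases had 7 of 20 tested members lower and 3 higher (3 lower and 5 higher with library size alone; 4 lower and 3 higher with replicates 1 and 2 summed). Mmp12, the macrophage elastase gene, was at 3383, 3479.8 and 3352 CPM in the MKO libraries, against 1026, 978 and 920.2 CPM in the WT libraries, a 3.49-fold rise of an abundant transcript, while Mmp13, a collagenase gene, was at 374 CPM in MKO and 595 CPM in WT. Mmp27 was at 8.11 CPM in MKO and 16.2 CPM in WT. At 0 h the log2 difference of Mmp12 was 2.03, against 1.80 after LPS, an interaction of -0.23 (adjusted p = 0.0498).

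Eicosanoid genes moved in both directions, with 8 of 22 tested members lower and 9 higher (7 lower and 12 higher with library size alone; 8 lower and 5 higher at a mean of at least 5 CPM). Ptgs2, the inducible cyclooxygenase 2 gene, was at 447, 444 and 537 CPM in the MKO libraries, against 1357, 1347 and 1282 CPM in the WT libraries (log2 fold change -1.48). Ptger4, a prostaglandin E2 receptor gene, was at 106 CPM in MKO and 230.2 CPM in WT. Ptgs1, the constitutive cyclooxygenase 1 gene, was at 12.7, 13.9 and 14.04 CPM in MKO, against 5.39, 4.96 and 3.87 CPM in WT, and rose (log2 fold change 1.52, SE 0.12, adjusted p = 1.7e-07). The leukotriene genes Alox5 and Ltc4s, for 5-lipoxygenase and leukotriene C4 synthase, also rose, at 4.52 CPM in MKO and 1.72 CPM in WT for Alox5 and 3.06 CPM in MKO and 0.439 CPM in WT for Ltc4s. Ptgir, the prostacyclin receptor gene, was at 20.6 CPM in MKO and 8.77 CPM in WT.

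Receptors for uptake had 14 of 28 tested members lower and 4 higher (median -0.30; 11 lower and 7 higher with library size alone). Fcgr1, the high-affinity IgG receptor gene, was at 798, 807 and 774 CPM in MKO, against 1633, 1641 and 1548 CPM in WT. Marco, a scavenger receptor gene for bacteria, was at 72.5, 81.4 and 69.2 CPM in MKO, against 188, 199 and 179 CPM in WT. Cd36, a scavenger receptor gene for oxidised lipids, was slightly higher (2259 CPM in MKO and 1928 CPM in WT; log2 fold change 0.23). Complement genes had 8 of 18 tested members lower and 4 higher (median -0.30; 7 lower and 6 higher with library size alone), with C1qb at 1162 CPM in MKO and 1979.5 CPM in WT and factor B (Cfb) at 398 CPM in MKO and 742 CPM in WT. Integrin and adhesion genes had 10 of 25 tested members lower and 4 higher (8 lower and 12 higher with library size alone). Itgax, the CD11c gene, was at 323, 332 and 336 CPM in MKO, against 145, 149 and 130.2 CPM in WT. Itgb3, the integrin beta 3 gene, was at 31.4, 31.4 and 33.2 CPM in MKO, against 11.8, 12.2 and 10.98 CPM in WT. Itgb2, their most abundant list mate, was at 1307 CPM in MKO and 1245 CPM in WT (adjusted p = 0.22).

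MHC class I presentation genes had 14 of 22 tested members lower and 0 higher (median -0.30; 7 lower and 4 higher with library size alone), with B2m, the gene of the light chain, at 4330.4, 4522 and 4095 CPM in MKO, against 6232, 6167 and 6105 CPM in WT. H2-Q7 and H2-Q6 fell furthest, with log2 fold changes of -1.35 and -1.28, but these copies may share reads. Of the MHC class II presentation genes 3 of 14 were lower (21.4%) and 2 higher (14.3%), near the 23% and 19.8% of all genes tested. Their median was -0.05 (0.20, with 2 lower and 3 higher, with library size alone). Ctss and Ctsl, cathepsin genes, were lower, and Ciita, the master regulator gene of class II, was at 17.998, 17.4 and 20.1 CPM in MKO, against 10.2, 11.3 and 11.2 CPM in WT, and rose. H2-Ab1, a class II chain gene, was at 149 CPM in MKO and 177 CPM in WT (adjusted p = 0.13). Lineage factors of macrophages had 10 of 19 tested members lower and 4 higher (6 lower and 8 higher with library size alone), with Tfec at 51.2 CPM in MKO and 102 CPM in WT, Zeb2 at 545 CPM in MKO and 868 CPM in WT. Cebpd was at 13.4 CPM in MKO and 23.7 CPM in WT.

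Cholesterol synthesis genes, which the factor SREBP2 drives, were lower with few exceptions. The list had 24 of 26 tested members lower and 1 higher, with a median of -0.76, and Hmgcs1, early in the path, and Dhcr7, at its end, were among the lower genes. Idi1, which encodes isopentenyl diphosphate isomerase, was at 38.6, 35.5 and 33.7 CPM in MKO, against 90.1, 93.8 and 86.7 CPM in WT. Cyp51, the lanosterol demethylase gene, was at 41.8, 40.5 and 37.8 CPM in MKO, against 96.4, 93.4 and 86.3 CPM in WT. Insig1, which holds SREBP in the endoplasmic reticulum and is itself an SREBP target, was at 139, 135 and 136 CPM in MKO, against 278, 278 and 291 CPM in WT. No library overlapped between genotypes in these 3 genes. Scap, the escort of SREBP, was the 1 member higher in MKO (log2 fold change 0.57, SE 0.08, adjusted p = 5.5e-05).

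Targets of the liver X receptor (LXR), which senses oxysterols, had 12 of 17 tested members lower and 0 higher (median -0.58; 10 lower and 2 higher with library size alone). Scd1, a desaturase gene, was at 4.703, 5.01 and 4.22 CPM in MKO, against 31.2, 29.8 and 35.5 CPM in WT. Mylip, a ubiquitin ligase gene, was at 77.7 CPM in MKO and 158 CPM in WT. Apoe, which encodes a lipid carrier, was at 2576, 2526 and 2723 CPM in MKO, against 4429, 4409 and 4628 CPM in WT. Fatty acid synthesis genes had 10 of 18 tested members lower and 1 higher (5 lower and 4 higher with library size alone; 6 lower and 1 higher with replicates 1 and 2 summed), with Scd2 at 174 CPM in MKO and 408 CPM in WT. Fads2 was at 8.03 CPM in MKO and 26.1 CPM in WT. Fatty acid oxidation and PPAR targets had 8 of 20 tested members higher and 5 lower (3 lower and 12 higher with library size alone; 3 lower and 5 higher with replicates 1 and 2 summed; 4 lower and 5 higher without replicate 1 of WT), and the genes that fell furthest were the lipid chaperones Fabp4 (75.6 CPM in MKO and 169 CPM in WT) and Fabp5 (452 CPM in MKO and 931 CPM in WT), while Acadm, a beta-oxidation enzyme gene, rose (69.99 CPM in MKO and 51.98 CPM in WT).

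Of glycolysis and Hif1a targets 8 of 28 were lower and 3 higher, with a median of -0.08 that was 0.17 with library size alone. The glycolysis counts were 1 lower and 11 higher with library size alone, 4 lower and 7 higher at a mean of at least 5 CPM, 5 lower and 2 higher with replicates 1 and 2 summed, without replicate 2 of MKO, without replicate 3 of MKO and without replicate 2 of WT, and 5 lower and 3 higher without replicate 1 of WT. Pkm, the most abundant by TPM, was at 2196 CPM in MKO and 2309 CPM in WT (adjusted p = 0.26), and Pfkp, a phosphofructokinase gene, rose (181 CPM in MKO and 130.2 CPM in WT). Of the nuclear genes of oxidative phosphorylation 5 of 43 were lower and 1 higher, with a median of -0.13 (0.12 with library size alone). These counts were 0 lower and 12 higher with library size alone, 18 lower and 3 higher with the 3 h libraries alone, 3 lower and 0 higher with replicates 1 and 2 summed, 20 lower and 2 higher without replicate 3 of both 0 h groups, 2 lower and 1 higher without replicate 3 of MKO, and 3 lower and 1 higher without replicate 3 of WT. Of the mitochondrially encoded genes 0 of 13 were lower and 0 higher in edgeR, and DESeq2 called 0 lower and 0 higher. None of them had an unadjusted p under 0.05 in edgeR (0 of 13). The calls were 0 lower and 9 higher with library size alone, 0 lower and 5 higher with the 3 h libraries alone, and 2 lower and 4 higher without replicate 3 of both 0 h groups. Their median of 0.06 was 0.31 with library size alone. By deposited TPM, which was not TMM-scaled, these genes took 5.72% to 6.14% of the total in MKO and 4.70% to 4.89% in WT, with no overlap. Of the tricarboxylic acid cycle genes 4 of 20 were higher (20%) and 3 lower (15%), Acod1 among those lower, against 19.8% and 23% of all genes tested. Those counts moved to 1 lower and 14 higher with library size alone, 3 lower and 8 higher with the 3 h libraries alone and without replicate 3 of both 0 h groups, and 1 lower and 1 higher with replicates 1 and 2 summed. In the pentose phosphate and one-carbon list 10 of 22 were lower and 3 higher (6 lower and 5 higher with library size alone). Mthfd2, a mitochondrial folate enzyme gene, was at 32.1, 34.97 and 29.8 CPM in MKO, against 77.8, 76.1 and 74.5 CPM in WT. Slc7a11, the cystine transporter gene, was at 48.1, 50.8 and 50.7 CPM in MKO, against 121, 112 and 111 CPM in WT.

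Mthfd2 and Slc7a11 are also targets of Atf4, the factor of the integrated stress response, and that list had 19 of 28 tested members lower and 4 higher (median -0.51; 13 lower and 6 higher with library size alone). Ppp1r15a, which encodes the phosphatase subunit that ends the response, was at 172, 165 and 186 CPM in MKO, against 537, 525 and 601 CPM in WT. Nupr1 was at 31.8, 36.95 and 36.01 CPM in MKO, against 104, 105 and 108 CPM in WT. Sesn2, Wars, Ddit4 and Eif2ak3, the PERK kinase gene, were the members that rose. Unfolded protein response genes had 12 of 25 tested members lower and 3 higher with a median of -0.17 (0.08, with 1 lower and 10 higher, with library size alone; 5 lower and 0 higher with replicates 1 and 2 summed), Herpud1 at 26.5 CPM in MKO and 45.1 CPM in WT. The chaperone gene Hspa5 was at 1316 CPM in MKO and 1634 CPM in WT.

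Cytosolic heat shock genes had 8 of 21 tested members higher and 7 lower (2 lower and 11 higher with library size alone; 6 lower and 5 higher with replicates 1 and 2 summed). Hspa1a and Hspa1b, inducible Hsp70 genes that are near-identical copies, were at 27.3 CPM in MKO and 59.8 CPM in WT for Hspa1a and 31.1 CPM in MKO and 65.6 CPM in WT for Hspa1b and fell, while Hsph1 (86.6 CPM in MKO and 50.7 CPM in WT) and Hsp90aa1 (490.4 CPM in MKO and 399.9 CPM in WT) rose. Nrf2 and oxidative stress genes had 12 of 24 tested members higher and 5 lower (3 lower and 17 higher with library size alone). Hmox1, the heme oxygenase gene, was at 481, 470.3 and 450.2 CPM in MKO, against 806, 782 and 795 CPM in WT. Sod2, the mitochondrial superoxide dismutase gene, was at 331 CPM in MKO and 612 CPM in WT, while Srxn1 rose (116 CPM in MKO and 84.6 CPM in WT). Iron genes had 10 of 15 tested members lower and 2 higher (median -0.36; 5 lower and 5 higher with library size alone), with the transferrin receptor gene Tfrc at 39.8 CPM in MKO and 63.7 CPM in WT. The iron exporter gene Slc40a1 rose, at 61.1 CPM in MKO and 40.7 CPM in WT.

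Targets of p53, the factor that answers DNA damage, rose more often than they fell. Arrest and repair targets had 18 of 30 tested members higher and 5 lower, against 19.8% and 23% of all genes, with a median of 0.44. Phlda3, an inhibitor gene of Akt signalling, was at 36.9, 35.04 and 33.7 CPM in MKO, against 5.89, 5.603 and 5.44 CPM in WT. Zmat3, which encodes an RNA-binding protein, was at 57.2, 57.1 and 54.7 CPM in MKO, against 18.99, 20.5 and 20.7 CPM in WT. Gtse1, a G2 regulator gene, was at 22.3 CPM in MKO and 8.29 CPM in WT. Cdkn1a, which encodes the cell cycle inhibitor p21, was at 888, 886 and 937 CPM in MKO, against 1034, 1012 and 942 CPM in WT, and did not pass the test (adjusted p = 0.054). Gadd45a fell, at 33.1, 36.7 and 34.4 CPM in MKO, against 91.4, 90.2 and 84.95 CPM in WT. Mdm2, the p53 ligase gene, also fell, at 553 CPM in MKO and 718 CPM in WT (log2 fold change -0.38). Members of this list thus moved in both directions.

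Apoptotic p53 targets had 6 of 13 tested members higher and 2 lower (1 lower and 9 higher with library size alone). Tnfrsf10b, the death receptor gene for TRAIL, was at 11.1, 14.1 and 11.9 CPM in MKO, against 3.07, 2.19 and 2.47 CPM in WT. Trp53inp1 was at 77.5, 70.7 and 80.6 CPM in MKO, against 27.95, 28.1 and 30.3 CPM in WT, while Apaf1, the apoptosome gene, was lower (113 CPM in MKO and 186 CPM in WT). In the Bcl2 family 7 of 17 were lower and 3 higher, with a median of -0.14 (0.11, with 5 lower and 8 higher, with library size alone). Bcl2a1a, Bcl2a1b and Bcl2a1d, NF-kB targets that protect from death and are near-identical copies, had log2 fold changes of -1.57, -1.23 and -1.44, and Bcl2l11, the gene of the death-promoting protein Bim, one of -1.03.

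Cell cycle genes were lower with no member higher. DNA replication and G1/S genes had 20 of 33 tested members lower and 0 higher (median -0.44), and mitosis and G2/M genes 26 of 31 tested members lower and 0 higher (median -0.64). Mki67, the proliferation marker Ki-67, was at 123, 131 and 126 CPM in the MKO libraries, against 380.3, 377 and 389 CPM in the WT libraries, a log2 fold change of -1.59. Pcna, the sliding clamp gene, was at 381, 413 and 383 CPM in MKO, against 627, 639.9 and 631 CPM in WT. Kif11, a spindle motor gene, was at 15.7 CPM in MKO and 29.8 CPM in WT. Tpx2, a spindle assembly gene, fell, at 32.1 CPM in MKO and 56.8 CPM in WT (log2 fold change -0.82).

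Among ubiquitin genes Ubb, which encodes a chain of ubiquitin repeats, was at 2122, 2124 and 2031 CPM in MKO, against 1882, 1856 and 1839 CPM in WT (adjusted p = 0.1). Rps27a, which encodes ubiquitin fused to a ribosomal protein, was lower, at 235 CPM in MKO and 294 CPM in WT. With library size alone the median of the 13 ubiquitin and ubiquitin-like genes was 0.04 in place of -0.22. Other deubiquitinases had 9 of 34 tested members higher (26.5%) and 7 lower (20.6%), near the 19.8% and 23% of all genes tested. With library size alone they were 3 lower and 22 higher. The lower ones were led by Tnfaip3 and Usp18, which removes the ubiquitin-like protein ISG15. Of the proteasome subunits 4 of 33 were higher and 0 lower, with Psmd3 at 161 CPM in MKO and 121 CPM in WT. The proteasome counts were 0 lower and 26 higher with library size alone, 1 lower and 17 higher with the 3 h libraries alone, 0 lower and 10 higher in DESeq2, 0 lower and 9 higher with RLE scaling, 0 lower and 12 higher at a mean of at least 5 CPM, 0 lower and 8 higher with no low-count filter, 0 lower and 2 higher with replicates 1 and 2 summed, and 1 lower and 15 higher without replicate 3 of both 0 h groups. Autophagy genes had 8 of 22 tested members higher and 7 lower (median 0.11, or 0.36, with 1 lower and 14 higher, with library size alone; 3 lower and 5 higher with replicates 1 and 2 summed), with Gabarapl1 at 137 CPM in MKO and 76.6 CPM in WT. The receptor gene Optn was at 25.1 CPM in MKO and 41.3 CPM in WT.

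Cytosolic ribosomal protein genes had 38 of 52 tested members lower and 0 higher (median -0.34). That count rested on few libraries and on the scaling: it was 17 without replicate 3 of MKO, 24 without replicate 2 of WT, 10 with replicates 1 and 2 summed and 1 with library size alone. Rplp0 was at 528 CPM in MKO and 669 CPM in WT. Rps24 was at 411 CPM in MKO and 614 CPM in WT. Ribosome biogenesis genes had 14 of 35 tested members higher and 5 lower (median 0.21; 2 lower and 25 higher with library size alone; 2 lower and 8 higher with replicates 1 and 2 summed), with Tsr1 at 24.7 CPM in MKO and 14.5 CPM in WT. Mybbp1a was at 119.6 CPM in MKO and 94.8 CPM in WT. Lysosomal genes had 19 of 36 tested members lower and 2 higher with a median of -0.18 (0.07, with 6 lower and 11 higher, with library size alone). The cathepsin genes Ctsb and Ctsl were lower (10468 CPM in MKO and 14699.6 CPM in WT for Ctsb), but Atp6v0d2, a proton pump subunit gene, was at 323, 346 and 342 CPM in MKO, against 182, 181 and 180.2 CPM in WT, and rose.

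Actin and SRF target genes had 11 of 27 tested members lower and 4 higher with a median of -0.11 (0.14, with 5 lower and 11 higher, with library size alone), Actb at 5783 CPM in MKO and 8092 CPM in WT. Cnn3, a calponin gene, rose, at 15.3, 17.3 and 21.6 CPM in MKO, against 5.14, 6.18 and 5.21 CPM in WT. Of the YAP and TGF-beta targets 6 of 17 were higher and 6 lower (3 lower and 6 higher with library size alone). Smad6 and Smad7, inhibitors of that pathway, rose, at 6.61 CPM in MKO and 2.04 CPM in WT for Smad6 and 20.7 CPM in MKO and 6.52 CPM in WT for Smad7, and Skil, another inhibitor, fell (385 CPM in MKO and 772 CPM in WT). Circadian clock genes had 9 of 17 tested members higher and 2 lower (median 0.34). Per1 was at 61.3, 61.3 and 78.02 CPM in MKO, against 29.8, 27.6 and 32.4 CPM in WT, Cry2 at 11.9 CPM in MKO and 5.83 CPM in WT. The repressor gene Bhlhe41 was at 52.5 CPM in MKO and 28.2 CPM in WT, and all 3 were higher, while Nfil3 was lower (25.9 CPM in MKO and 63.9 CPM in WT).

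Markers of other cell types stayed low for the most part. Summed eosinophil markers were at 41.5 to 53.6 CPM in MKO and 74.9 to 83.2 CPM in WT, and without Ccr3 at 17.7 to 22.9 CPM in MKO and 4.82 to 8.501 CPM in WT. Siglecf, which alveolar macrophages also carry, was at 13.7, 11.7 and 11.4 CPM in MKO, against 2.07, 2.898 and 1.79 CPM in WT, and rose (log2 fold change 2.45, SE 0.16, adjusted p = 3.3e-08). Ccr3, an eosinophil chemokine receptor gene, was at 30.8, 25.9 and 23.8 CPM in MKO, against 75.7, 72.4 and 70.05 CPM in WT, and fell. B cell markers summed to 26.01 to 26.9 CPM in MKO and 15.8 to 19.8 CPM in WT, with Ighm at 15.3, 15.1 and 14.5 CPM in MKO, against 9.53, 10.3 and 8.52 CPM in WT. Mesothelial and fibroblast markers summed to 2.72 to 3.53 CPM in MKO and 5.66 to 7.599 CPM in WT, and without Dcn, their most abundant one, to 1.69 to 2.5998 CPM in MKO and 2.07 to 4.31 CPM in WT. For dendritic cell markers the sum was 14.3 to 17.1 CPM in MKO and 20.2 to 21.4 CPM in WT. For neutrophil markers it was 396 to 476 CPM in MKO and 441 to 483 CPM in WT. Without Csf3r, their most abundant one, it was 277 to 354 CPM in MKO and 267 to 313 CPM in WT. Of 11 tested neutrophil markers 3 were higher (Ltf, Mpo and Cxcr2) and 1 lower (Csf3r). Those counts were 5 higher and 1 lower with library size alone, and 1 higher and 2 lower without replicate 3 of WT. The sums for T and NK cells were 9.87 to 10.6 CPM in MKO and 9.595 to 12.4 CPM in WT, and without Cd4, which macrophages may also express, they were 2.96 to 3.96 CPM in MKO and 1.61 to 2.86 CPM in WT, with no overlap. Nkg7 and Gzmb, cytotoxic granule genes of that list, rose (log2 fold change 2.52 and 1.003). For mast cells and basophils they were 7.37 to 9.06 CPM in MKO and 10.8 to 13.3 CPM in WT, where the defining mast cell genes Mcpt4, Cma1, Tpsb2 and Tpsab1 had no count, and without Gata2 they were 5.45 to 7.199 CPM in MKO and 5.77 to 7.47 CPM in WT. Plasma cell markers summed to 265 to 279.8 CPM in MKO and 341 to 352 CPM in WT, and without Prdm1, a factor gene that macrophages also express, to 148 to 156 CPM in MKO and 80.2 to 83.2 CPM in WT. Most of the plasma cell sum without Prdm1 was Sdc1, at 149.9 CPM in MKO and 80.9 CPM in WT. Jchain was at 1.23 CPM in MKO and 0.722 CPM in WT, and Igha at 0.518 and 0.122 CPM. Neither Jchain nor Igha passed the test (adjusted p = 0.27 and 0.20). Platelet and erythroid markers summed to 141 to 163 CPM in MKO and 167 to 184 CPM in WT. Without Pf4 they summed to 49.3 to 55.96 CPM in MKO and 29.8 to 32.3 CPM in WT, higher in MKO with no overlap, and Ppbp, Itga2b and Gp9, platelet genes, rose (log2 fold change 0.80, 0.75 and 1.07). Markers of small peritoneal macrophages and monocytes summed to 674 to 687 CPM in MKO and 746 to 770.4 CPM in WT. The part of these sums in the results was not tested.

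The difference in the mRNA pool was read from the deposited TPM, which corrects for length, among genes that passed the test with no overlap of libraries. TPM was used as deposited, without TMM scaling, so gains and losses on it differ in size from those on CPM. Fth1, a ferritin chain gene, lost most, at 51514, 51557 and 51769 TPM in MKO, against 63161, 62706 and 63426 TPM in WT. Ccl4 followed at 1416 TPM in MKO and 4521 TPM in WT, then Ccl3. Ftl1, the other ferritin chain gene, was at 14120.3, 13993 and 13838 TPM in MKO, against 16540.5, 16840.2 and 16827 TPM in WT. B2m, Tnf, Acod1, Il1b, Apoe and Cxcl10 completed the 10 genes that lost most TPM, with Tnf at 3046 TPM in MKO and 4705 TPM in WT. Among these genes Spp1, the osteopontin gene, gained most, at 9408, 9262 and 9250.0 TPM in MKO, against 6133, 6212 and 5942 TPM in WT, ahead of S100a11 at 2209 TPM in MKO and 1101 TPM in WT and Mmp12 at 1409.9 TPM in MKO and 323 TPM in WT. The antioxidant gene Prdx1, Cd36, Plau, Clec7a, the chaperone gene Hsp90ab1 and Glipr1 were also among the largest gains, while the mitochondrial mt-Co1, which did not pass the test, stood at 17282 TPM in MKO and 14688 TPM in WT. The 100 most abundant genes took 35.8% to 36.2% of TPM in MKO and 39.0% to 39.1% in WT. On TMM-scaled CPM Spp1 had a log2 fold change of 0.29, Hsp90ab1 one of 0.14 and Fth1 one of -0.61. There mt-Co1 was lower in MKO and not higher, at 8908 CPM in MKO and 9458 CPM in WT. Calr, called lower on CPM (log2 fold change -0.29), was at 2024 TPM in MKO and 1987 TPM in WT.

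**Figure D4:**
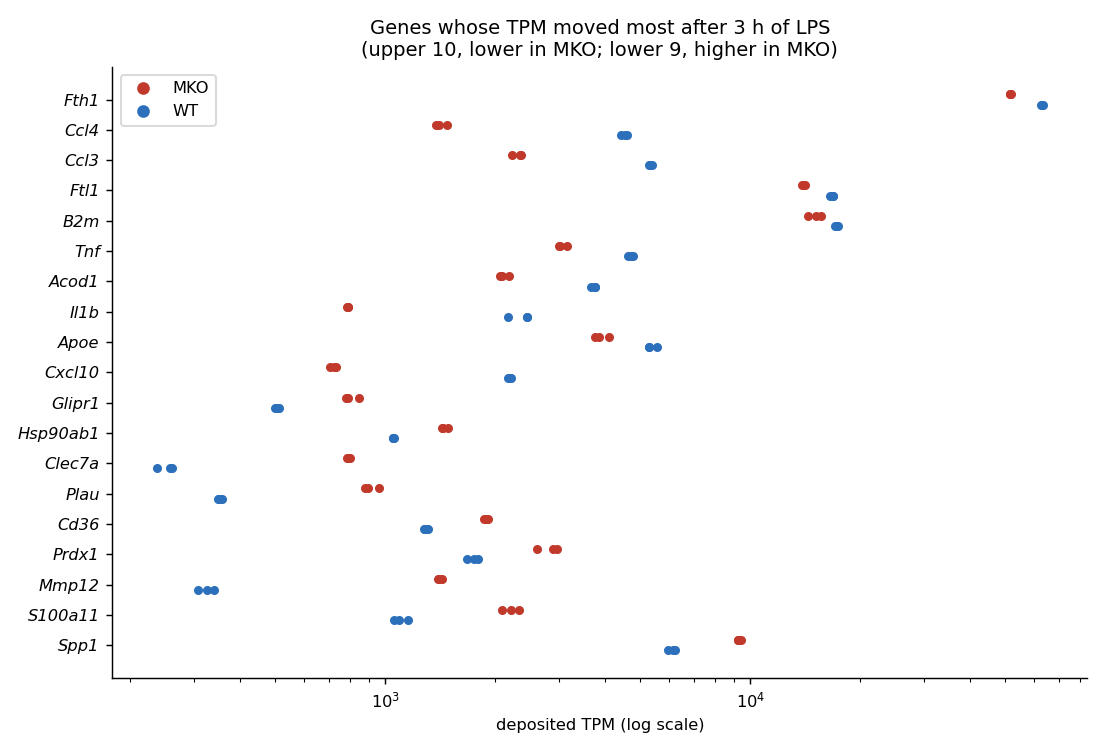
Deposited TPM (horizontal axis, log scale) in each of the 3 MKO and 3 WT libraries for the 10 genes that lost most TPM in MKO and 9 of those that gained most, after 3 h of LPS among genes that passed the test with no overlap, points for libraries. Fth1 is the most abundant in both genotypes, and no gene has overlapping genotypes.

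The difference after LPS was set beside that at 0 h, where 32.9% of genes differed (16.5% higher and 16.4% lower in MKO), with the interaction of genotype and LPS as the test, which called 847 genes (6.8%), 549 of them negative (4.41%) and 298 positive (2.39%). Antiviral genes were already lower without LPS (60 lower and 0 higher of 68), and 13 of them had a negative interaction. Cholesterol synthesis genes were 22 lower and 1 higher at 0 h, with 1 negative interaction, Insig1, at -0.63 (SE 0.078, adjusted p = 0.00012). Mitosis and G2/M genes were 25 lower and 0 higher at 0 h with 1 negative interaction, Mki67. DNA replication and G1/S genes were 22 lower and 0 higher of 33 at 0 h, with 0 interactions in either direction. Toll-like receptors were 9 lower and 0 higher of 11 at 0 h, with 0 negative interactions and 1 positive one. LXR targets were 14 lower and 0 higher of 17 at 0 h, also with 0 negative interactions and 1 positive one. Cytokine genes at 0 h were 8 lower and 7 higher of 31, and 16 had a negative interaction and 0 a positive one, Il6 and Il12b among them at -3.15 (SE 0.54, adjusted p = 0.002) and -3.67 (SE 0.32, adjusted p = 3.7e-06). Costimulatory ligands had 10 negative and 0 positive interactions, NF-kB inhibitors 9 negative and 0 positive, and chemokines 8 negative and 0 positive. Arrest and repair targets of p53 were 0 lower and 18 higher at 0 h, with 6 negative and 4 positive interactions, and Gadd45a, which was at a log2 difference of -0.05 at 0 h, had an interaction of -1.31 (SE 0.11, adjusted p = 3.7e-06).

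**Figure D5:**
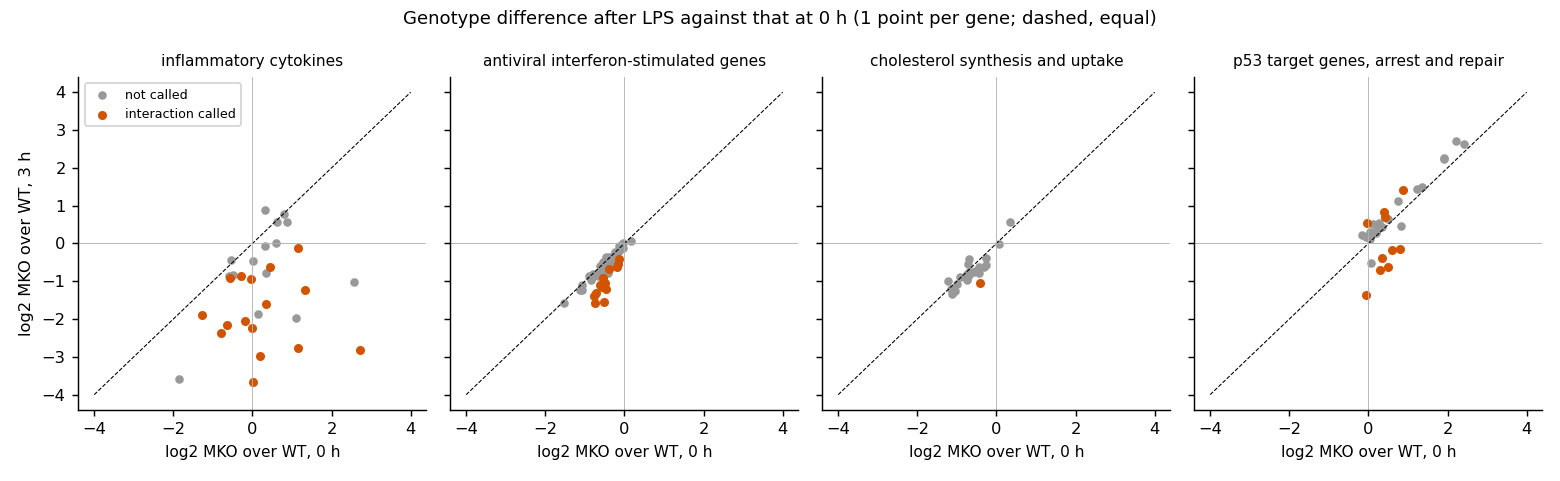
Log2 fold change of MKO over WT at 3 h of LPS (vertical axes) against that at 0 h (horizontal axes) for the tested genes of 4 lists, 1 point per gene, coloured where the interaction passed an adjusted p of 0.05. Antiviral and cholesterol synthesis genes lie near the dashed line of equal difference, and cytokine genes lie mostly below it, with 16 of 31 called.

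Spry1, a feedback inhibitor gene of growth factor signalling, was at 1.04 CPM in MKO and 4.38 CPM in WT after LPS, with an interaction of -4.53 (SE 0.75, adjusted p = 0.0014), and Gfi1, a repressor gene, had one of -3.43 (SE 0.5, adjusted p = 0.00049). At 0 h both were higher in MKO, with log2 differences of 2.49 for Spry1 and 1.42 for Gfi1. After LPS those differences were -2.05 and -2.01. F3 had log2 differences of -1.07 after LPS, where it was lower in MKO, and of 2.65 at 0 h, where it was higher in MKO. The positive end held 7 zinc finger genes of low level among its 10 genes, such as Zfp763 at 1.74, 1.42 and 1.41 CPM in MKO, against 0.313, 0.322 and 0.2802 CPM in WT. Fbxo32, which encodes a ubiquitin ligase of muscle wasting, was at 9.58, 11.1 and 9.11 CPM in MKO, against 1.82, 1.03 and 1.34 CPM in WT, with an interaction of 2.22 (SE 0.24, adjusted p = 3.2e-05). Without replicate 3 of both 0 h groups the interaction called 2541 genes.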

How the data were processed

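RNA sequencing of peritoneal macrophages gave a table of counts per gene that the authors deposited with TPM beside them; per the file headers, counts and TPM stand in a pair of columns for each library. Reads were handled with fastp and the build mm10, per the submitters' processing notes, while no source used here gives the aligner, the counter or the strand setting. Unstranded and shared reads can therefore not be parted. Library totals are given with the results, and precision is that of 3 libraries per group.

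Counts were fitted with edgeR 4.0.16 (R 4.3.3): TMM scaling, its low-count filter, a mean per group over all 12 libraries, the quasi-likelihood test and Benjamini-Hochberg adjustment, called at 0.05 with no fold minimum. CPM used the TMM-scaled library size. Deposited TPM served to compare levels between genes and to set shares of the mRNA pool in MKO beside those in WT. No test used it. The interaction was the difference at 3 h minus that at 0 h. The fit was tested on simulated data. DESeq2 1.42.0, other scalings, filters, blocks and left-out libraries were the alternatives. Figures used matplotlib 3.10.9 and Python 3.11.15.

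Named genes were Usp5, then, among called genes with no overlap of libraries and a mean of at least 1 CPM in the higher genotype, the 15 largest rises and falls, the 10 rises and falls with the largest TPM difference and the 10 with the largest interaction in the same direction, then the 4 smallest p and the highest TPM of each of 57 gene lists and 12 marker lists. Other genes, such as Il10, Il12a, Osm, Tlr4, Alox5, Ltc4s, Per1, Mdm2, Nos2 and Fos, were named after their values were seen, and so was each gene given as an exception to a list. Some named genes were left out of the text. The members and lists were chosen with earlier results of these data known. Promoters of RefSeq matched 9464 of 12455 genes tested by symbol.

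Same-numbered libraries of the 3 h groups did not deviate together, with correlations of 0.0151, 0.0445 and 0.0111 for numbers 1, 2 and 3. For the 0 h groups they were -0.155, -0.094 and -0.337. Libraries of 0 h and 3 h were not compared in this way, so pairing across times was not tested. Replicates 1 and 2 differed less than other pairs, with a chi-square per degree of freedom of 1.94 in MKO and 1.92 in WT, against 2.97 to 4.18, which is above sampling noise, so they were kept apart and summed only as an alternative.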

Additional observations from a re-analysis of the deposited data

Results flagged for a closer look

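Genes below differed between the times by a test of the interaction itself, the log2 difference of MKO minus WT at 3 h of LPS minus that at 0 h, in edgeR. They are 10 positive and 9 negative ones, taken from those with the largest interaction in the direction of the difference at 3 h. The negative ones were Csf2 (-5.55), Ifnb1 (-4.94), Spry1 (-4.53), Edn1 (-3.91), F3 (-3.72), Il12b (-3.67), Plagl1 (-3.51), Gfi1 (-3.43) and Il6 (-3.15). The positive ones were Zfp763 (2.51), Zfp105 (2.44), Smad6 (2.35), Zfp286 (2.31), Fbxo32 (2.22), Zfp60 (2.16), Mettl18 (2.14), Zfp563 (2.11), Zfp383 (2.05) and Zfp955b (2.001). Csf2 had a log2 difference of 2.73 at 0 h, where its mean was 0.299 CPM in MKO and 0.0396 CPM in WT. Of the negative ones, Spry1 (2.49), Edn1 (1.14), F3 (2.65) and Gfi1 (1.42) were called higher in MKO at 0 h. Csf2, Ifnb1, Il12b, Plagl1 and Il6 were not called at 0 h, which does not show equal levels there. The adjusted p of the interaction was 0.014 for Ifnb1 and 0.002 for Il6. For the difference after LPS it was 5.5e-11 and 1.1e-09, so these interactions were less precise.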

How the results depend on the processing

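The count of genes that differed after LPS was 5326. It was 2716 when the difference had to exceed 1.2-fold and 3451 with replicates 1 and 2 of each group summed. Leaving out each 3 h library gave 4415 to 4533 genes. It was 6852 with the 3 h libraries alone, 5272 in DESeq2, 5303 with RLE scaling, 6623 with library size alone, 4437 at a mean of at least 5 CPM and 5226 with no low-count filter. Without replicate 3 of both 0 h groups, an alternative chosen after seeing the data, it was 7027. The replicate numbers are not stated to pair the samples, and a replicate block gave 4936 genes over all libraries and 6956 with the 3 h libraries alone. The interaction called 847 genes, and 2541 without replicate 3 of both 0 h groups; the cause was not tested. With library size alone the log2 fold change turned over to 0.21 for Csf1r, 0.082 for Hspa8, 0.18 for Npm1, 0.18 for Pkm and 0.16 for mt-Co1. Of 326 named results, 270 of which could be run at a mean of at least 5 CPM, none turned over under the other alternatives, while 42 were no longer called at 1.2-fold, 21 with library size alone, 18 with replicates summed and 7 to 10 with a 3 h library left out. Low genes such as Flnc in WT rest on few counts, which limits the size of their fold.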
